A study of Homo sapiens with 21 samples.

Results

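Circular RNAs from genes that regulate small GTPases, together with genes named RAB and a digit, were followed in FaDu, an established cell line from a hypopharyngeal squamous cell carcinoma. They were chosen by host gene symbol alone, as every listed circRNA whose host belongs to the ARHGAP, ARHGEF, DOCK, TIAM, TBC1D, RABGAP, DENND, RAPGEF, RASA, RASAL, RALGAP, RALGPS, SOS, ARFGEF, ARFGAP, AGAP or ASAP genes or has a symbol made of RAB and a digit. This gave 207 of 8714 circRNAs, on 79 of 3809 host genes, with 1085 of 45285 back-splice junction reads. The same symbols gave 362 of 14885 entries in the authors' table of differential m6A sites, on 82 of 3331 circRNAs and 57 of 2502 hosts. Of these 82 circRNAs, 65 also had junction reads, and 8 of the hosts had m6A entries without junction reads.

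Small GTPases are active when bound to GTP and inactive when bound to GDP. Guanine nucleotide exchange factors (GEFs) load GTP, and GTPase-activating proteins (GAPs) speed its hydrolysis. The ARHGAP, ARHGEF, DOCK and TIAM genes encode regulators of the GTPases that shape the actin cytoskeleton, Rab and Arf proteins direct membrane traffic, and Ras, Rap and Ral proteins act in growth and adhesion signalling. A circRNA forms when a downstream splice donor joins an upstream acceptor of the same transcript, and reads across that back-splice junction identify it. IGF2BP3 is an RNA-binding protein that recognises m6A, a methyl mark on adenosine in RNA.

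The study compared FaDu cells carrying an IGF2BP3 knockdown, called sh3-1 or sh3-2 in the labels, with cells named shCtr and labelled wild type with a blank control treatment. Junction reads came from 9 total RNA libraries, 3 per group with the letters A, B and C. The m6A entries compared sh3-2 with shCtr in 12 libraries, 3 pairs of IP and input per group, and sh3-1 had no m6A libraries. Whether the lettered libraries came from separate cultures is not stated in the labels, and the p-values below therefore reflect a spread between libraries that may be technical. Because both knockdowns were compared with the same 3 control libraries, their differences from control are given side by side and are not independent. In these bulk libraries, fewer cells with a circle and fewer copies per cell cannot be told apart.

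Total junction reads ran from 5502 to 5818 in the controls, from 5023 to 5846 with sh3-1 and from 3775 to 4168 with sh3-2. Where a library had no read of a circle, the limit on its share (3 counts of the total) lay between 0.0513% and 0.0795%, for counting error only. Circles of IGF2BP3 itself gave 6, 2 and 0 control reads, 5, 1 and 0 with sh3-1 and 3, 6 and 0 with sh3-2, which does not measure its mRNA. Of 12 squamous markers only EGFR had circle reads, 4 in control C, and none of 7 markers of other cell types had any, so circles do not check the labelled cell type. In sh3-1, libraries A and B shared 22 of the small GTPase regulator circRNAs, 37.3% of those found in either, against at most 21.0% for any other pair of libraries. Hosts named for a separation with sh3-1 are given with their counts in each library, and families as ranges or sums.

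Small GTPase regulator circRNAs took 19.6, 23.6 and 23.0 junction reads per 1000 in control libraries A, B and C. The values were 25.9, 26.9 and 28.3 with sh3-1 and 22.0, 24.1 and 20.9 with sh3-2. All 3 sh3-1 libraries were above all 3 controls, whereas the sh3-2 libraries overlapped them. The separation with sh3-1 is not particular to these hosts: the 47 other small GTPase pathway hosts described further on also lay above all controls there. Group means were 22.1 ± 2.15 (SD, n = 3) for shCtr, 27.0 ± 1.20 for sh3-1 and 22.3 ± 1.64 for sh3-2. The Wilson 95% intervals of single libraries, which cover counting error only, ran from 16.3 to 32.9 per 1000. Without ARHGAP5, the leading host, the sh3-1 libraries no longer separated from the controls: means were 18.6 ± 2.43, 21.4 ± 1.79 and 17.4 ± 1.57 (SD, n = 3), and sh3-1 A, at 19.7, lay below control B, at 20.4.

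**Figure D1:**
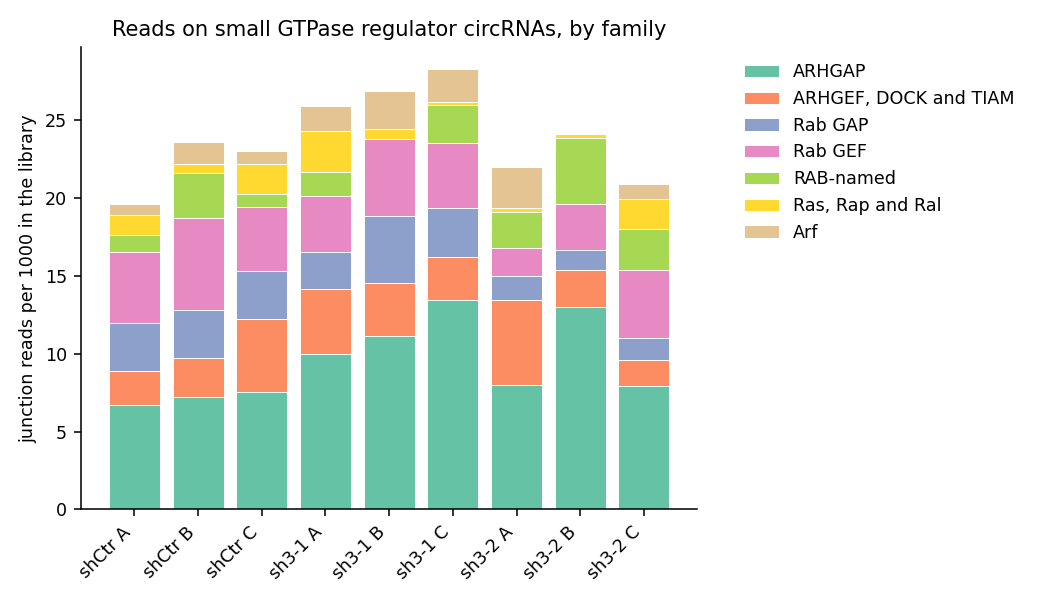
Stacked bars give junction reads per 1000 reads of each library on small GTPase regulator circRNAs, coloured by family, for the 9 libraries. The sh3-1 bars reach 25.9 to 28.3 against 19.6 to 23.6 in the controls, and ARHGAP hosts form the tallest segment in every library.

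Most of these circles were exonic and thinly covered. Exonic circles made up 69.6% of them against 69.9% of all circRNAs, and 59.9% against 56.0% carried a circBase ID, an entry in a public circRNA catalogue. Their median predicted length was 536 bases when exonic, against 589 for all exonic circles. Only 3 of the 207 were found in all 9 libraries, 135 were found in 1 library, and 9 had 10 or more reads in all, which is 4.35% of them against 8.33% of all circRNAs. Of the 79 hosts, 27 had 10 or more reads over the 9 libraries and 52 had fewer. ARHGAP5, ARHGAP10, ARHGAP12, DENND4A and DENND5B had reads in every library, and the 10 leading hosts held 55.8% of the reads. A single circRNA was listed for 39.2% of these hosts, against 52.5% of all hosts.

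Several hosts used a shared splice site in many circles. All 6 DOCK1 circles, which extend from a common base at chr10:128768966 on the plus strand (hg19) to 6 different ends, and all 4 TBC1D31 circles, which begin at chr8:124089351, shared their upstream edge. DOCK1 is a Rac exchange factor. No DOCK1 circle had more than 7 reads, and the longest, chr10:128768966-128851079, had all its 4 reads in sh3-2 A. Of the 176 circles on hosts with several, 90 shared a start or an end with another circle of the same host, which is 51.1% against 55.5% over all hosts.

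**Figure D2:**
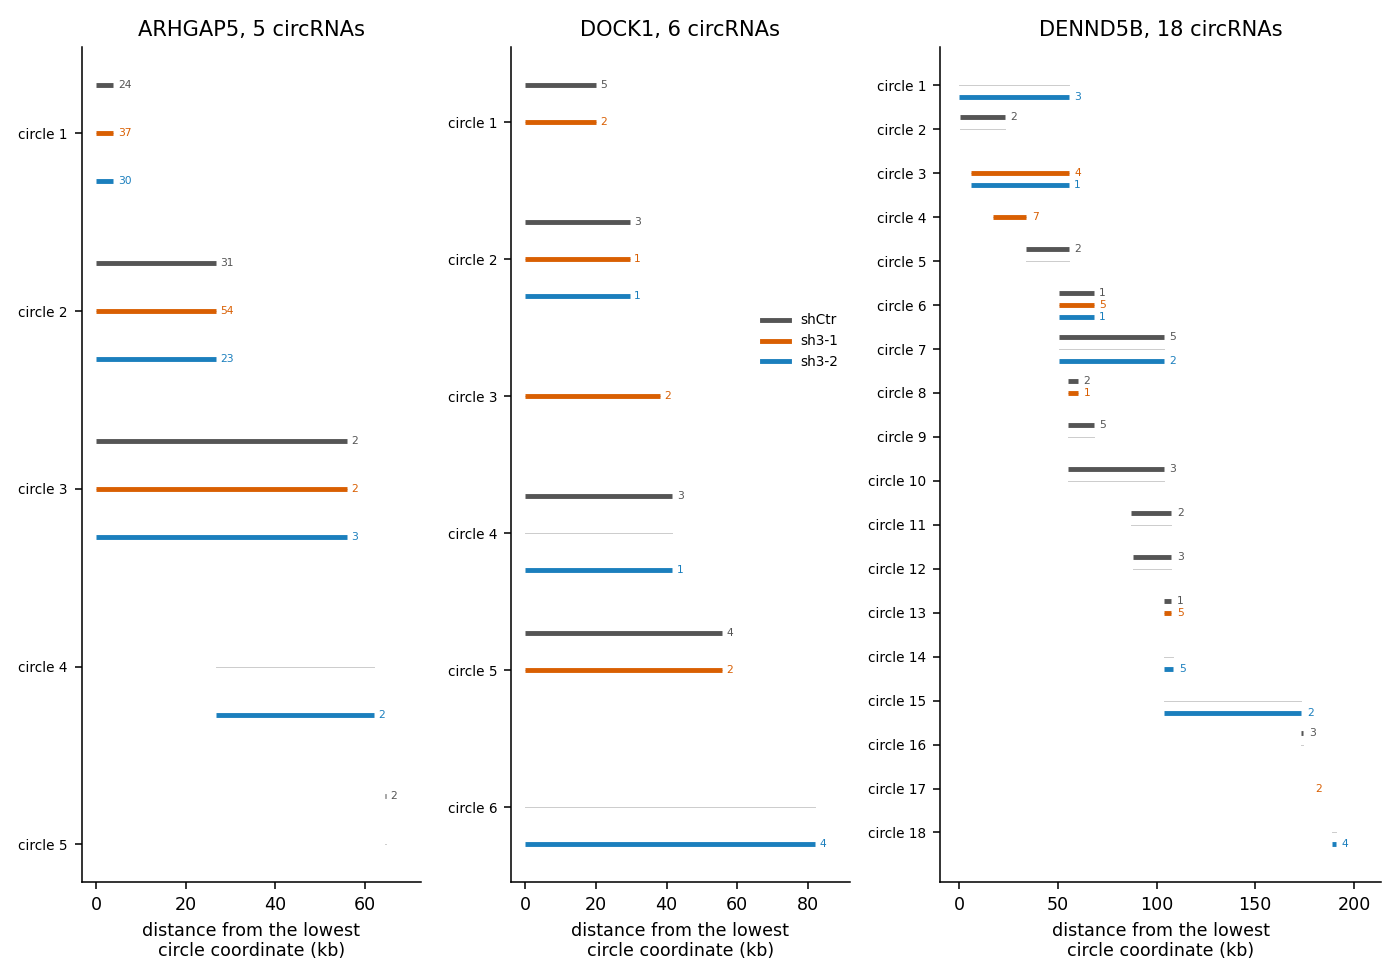
Each bar spans a circRNA of ARHGAP5, DOCK1 or DENND5B by its distance in kilobases from the lowest circle coordinate of the host, and the number beside it gives the junction reads summed over the 3 libraries of a group (thin grey lines mark the span). The 6 DOCK1 circles share their left edge, 3 of 5 ARHGAP5 circles do so too, and the 18 DENND5B circles lie along the gene with few reads each.

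The ARHGAP genes, which encode GAPs, were the best covered family, with 13 hosts, 35 circles and 426 reads, 39.3% of all reads on small GTPase regulators. They took 6.72 to 7.56 reads per 1000 in the controls, 9.95 to 13.4 with sh3-1 and 7.92 to 13.0 with sh3-2. All 6 knockdown libraries lay above all 3 controls. No background over comparable sets of other hosts was computed for family separations, here or below, so they are described only. ARHGAP5 alone, which encodes the GAP p190B, held 210 of these reads. Without it the groups overlapped, at 2.91 to 4.13 in the controls, 3.78 to 7.53 with sh3-1 and 2.64 to 7.15 with sh3-2.

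ARHGAP5 circles had 21, 18 and 20 reads in the controls, 31, 21 and 41 with sh3-1, and 14, 22 and 22 with sh3-2. Scaled to 1000 junction reads, the means were 3.50 ± 0.292, 5.64 ± 1.84 and 4.91 ± 1.15 (SD, n = 3). Libraries of the groups overlapped, since sh3-1 B (3.59) and sh3-2 A (3.62) lay below control A (3.82). The fitted log2 fold change was 0.69 (SE 0.36) with sh3-1, with an adjusted p of 0.591 by edgeR's quasi-likelihood test. With sh3-2 it was 0.45 (SE 0.34), with an adjusted p of 0.795 by the same test. Between the knockdowns, sh3-2 against sh3-1, it was -0.23 (SE 0.36; adjusted p = 0.795, edgeR), so no ARHGAP5 difference passed the test.

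A pair of nested circles carried 199 of the 210 ARHGAP5 reads. The shorter, chr14:32559708-32563592 (hsa_circ_0031583), has a predicted length of 3885 bases, equal to its genomic span. The longer, chr14:32559708-32586493 (hsa_circ_0031584), starts at the same base and adds 145 bases of predicted sequence. Reads of the shorter circle were 11, 7 and 6 in the controls, 11, 10 and 16 with sh3-1, and 5, 10 and 15 with sh3-2. For the longer they were 7, 11 and 13, then 20, 11 and 23, then 7, 9 and 7. The shorter circle's share of the pair ran from 31.6% to 61.1% in the controls, from 35.5% to 47.6% with sh3-1 and from 41.7% to 68.2% with sh3-2, and all groups overlapped. These were the only small GTPase regulator circRNAs tested at the circle level, and only with sh3-1: the log2 fold changes were 0.52 (SE 0.56; adjusted p = 0.850, edgeR) for the shorter and 0.69 (SE 0.54; adjusted p = 0.848, edgeR) for the longer.

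ARHGAP12, a GAP with Rac activity, depended on the third circle found in all 9 libraries, chr10:32197100-32199491 (hsa_circ_0000231). That circle held 58 of the host's 72 reads, with 6, 10 and 1 in the controls, 3, 9 and 15 with sh3-1 and 2, 7 and 5 with sh3-2. All 3 groups overlapped. ARHGAP10, a GAP of the GRAF family, had 4, 4 and 3 reads in the controls, 2, 12 and 7 with sh3-1 and 7, 4 and 2 with sh3-2. Most of these came from chr4:148778704-148803083 (hsa_circ_0071106), with 28 of 45 reads.

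ARHGAP35, which encodes the GAP p190A, the paralogue of ARHGAP5, had 0, 2 and 8 reads in the controls, 3, 2 and 2 with sh3-1 and 4, 4 and 2 with sh3-2. ARHGAP32 had 6, 2 and 2 in the controls, 2, 6 and 3 with sh3-1 and 0, 0 and 2 with sh3-2. Groups overlapped in both hosts. ARHGAP26 (GRAF1), also of the GRAF family, had 0, 1 and 1 reads in the controls, 2, 8 and 2 with sh3-1 and 2, 2 and 0 with sh3-2. Its sh3-1 libraries all lay above the controls, with 8 of the 12 sh3-1 reads in library B. All its sh3-1 A reads were on circles also found in sh3-1 B, and whether these libraries are independent is not stated.

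The exchange factor genes named ARHGEF, DOCK and TIAM, with 17 hosts and 40 circles, gave 147 reads, and their groups overlapped in both comparisons. DOCK1 had 3, 2 and 10 reads in the controls, 2, 4 and 1 with sh3-1 and 5, 0 and 1 with sh3-2. ARHGEF7, the exchange factor β-PIX that acts on Rac and Cdc42, had 0, 1 and 9 control reads and was at 0 in all 6 knockdown libraries. Set against a floor of 3 counts over a group, the control level was 3.28 times the sh3-1 floor and 2.33 times the sh3-2 floor. Such ratios take the control count as exact. They were computed only for hosts with 0 reads in 1 group, so they do not test a difference. As control A also had 0 reads, the groups overlapped, and 9 of the 10 reads came from control C.

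The authors' own threshold was a p-value under 0.05 with a fold of at least 2. In the authors' deposited table, 169 small GTPase regulator circles were listed with sh3-1, and none was called lower (background 0.641%). With sh3-2, none of 157 was called in either direction, against backgrounds of 0.346% higher and 0.331% lower. No circRNA of the series reached an FDR under 0.05 in that table.

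Exchange factors for Rab proteins of the DENN-domain family contributed 7 hosts, 46 circles and 189 reads. DENND5B gave 18 different circles, more than any other small GTPase regulator, and DENND4A gave 13. DENND5B had 8, 14 and 7 reads in the controls, 5, 8 and 11 with sh3-1 and 3, 7 and 8 with sh3-2, with overlap of all groups. Its best covered circles had 7 reads each, 9.86% of the host's 71, and 9 of the 18 circles were found in a single library. Between the knockdowns its log2 fold change, sh3-2 against sh3-1, was 0.05 (SE 0.69; adjusted p = 0.975, edgeR), a sign that turned in 3 of the 11 alternatives.

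DENND4A, an exchange factor for Rab proteins of secretory traffic, had 8, 10 and 7 reads in the controls, 6, 11 and 5 with sh3-1 and 2, 4 and 6 with sh3-2. Per 1000 junction reads the means were 1.49 ± 0.300, 1.32 ± 0.516 and 1.01 ± 0.464 (SD, n = 3), and the libraries overlapped. Its leading circle, chr15:66044717-66053776 (hsa_circ_0035957), had 12 of 59 reads. DENND4C had 3, 6 and 0 reads in the controls, 0 in all sh3-1 libraries, and 2, 0 and 3 with sh3-2.

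TBC-domain GAPs for Rab proteins took 3.06 to 3.09 reads per 1000 in the controls, 2.39 to 4.28 with sh3-1 and 1.32 to 1.55 with sh3-2. The sh3-2 libraries lay below all controls, on 17, 17 and 18 control reads and 6, 5 and 6 sh3-2 reads. RABGAP1L had 5, 4 and 3 reads in the controls, 0, 0 and 0 with sh3-1 and 0, 0 and 2 with sh3-2, so that both knockdowns lay below every control. Against the floor of 3 counts over the group, the control level was 3.94 times the sh3-1 floor, again with the control count taken as exact. Each control library's reads came from a different RABGAP1L circle, none of which was found in another library. TBC1D12, another TBC-domain protein, had 0, 0 and 2 control reads, 3, 8 and 2 with sh3-1 and 2, 0 and 1 with sh3-2, and its sh3-1 libraries lay above every control. All TBC1D12 reads in sh3-1 A were likewise on circles also found in sh3-1 B. TBC1D31, whose product sits at the centrosome, had 0, 4 and 5 reads, then 3, 8 and 4, then 2, 0 and 3, with overlap.

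The 12 hosts named RAB and a digit gave 85 reads. RAB7A, the GTPase of late endosomes, led them with 3, 8 and 0 reads in the controls, 0, 0 and 3 with sh3-1 and 0, 2 and 3 with sh3-2. The Ras, Rap and Ral regulators had the fewest reads, 49 on 9 hosts, led by RAPGEF2 with 13. Neither family separated in any comparison with the controls.

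Arf regulators gave 65 reads on 6 hosts, 41 of them from ASAP1, an Arf GAP of focal adhesions and podosomes. The family took 0.727 to 1.44 reads per 1000 in the controls and 1.59 to 2.39 with sh3-1, without overlap, and 0 to 2.58 with sh3-2. ASAP1 had 4, 6 and 5 reads in the controls, 6, 7 and 9 with sh3-1 and 2, 0 and 2 with sh3-2. Per 1000 junction reads these are 0.727 to 1.08, 1.19 to 1.57 and 0 to 0.517. All sh3-1 libraries lay above the controls and all sh3-2 libraries below them. All Arf regulator reads in sh3-1 A, those of ASAP1 included, were on circles also found in sh3-1 B. Whether these libraries are independent is not stated. Among hosts with 10 or more reads over the 9 libraries, 1 of 27 small GTPase regulators and 6 of 1137 hosts in all, 0.528%, had knockdowns on opposite sides of every control. ASAP1 was singled out after its values were seen. Its leading circle, chr8:131370263-131374017 (hsa_circ_0085616), had 2, 3 and 2 reads in the controls, 4, 4 and 9 with sh3-1 and 1, 0 and 2 with sh3-2.

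**Figure D3:**
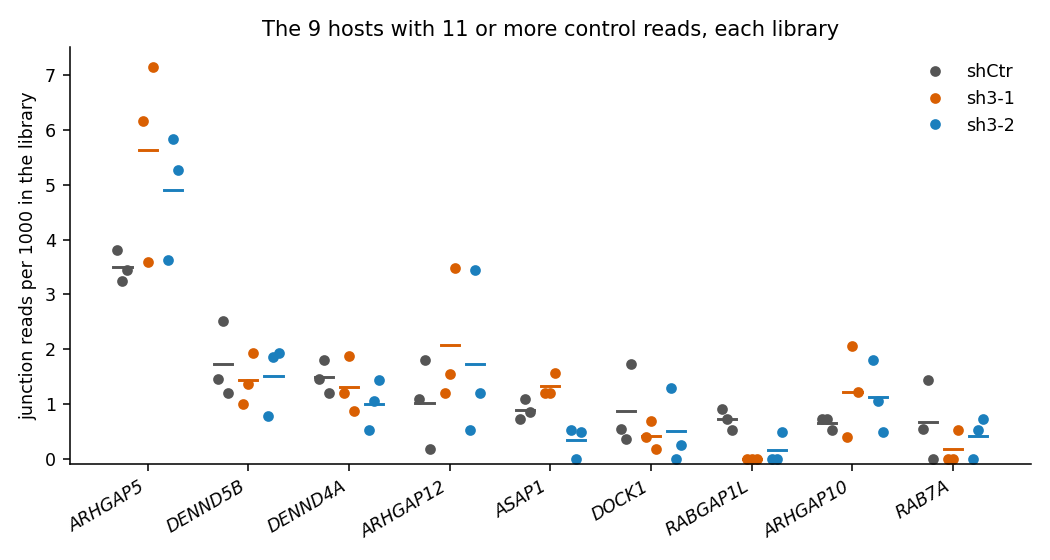
Points give junction reads per 1000 reads of each library for the 9 hosts with 11 or more control reads, coloured by group, and lines mark the group means. ASAP1 is higher in all sh3-1 and lower in all sh3-2 libraries than in the controls, RABGAP1L is at 0 in 5 of 6 knockdown libraries, and the groups of ARHGAP5 overlap.

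Few of these hosts had reads enough for a test. The edgeR filter kept 82 hosts of all kinds with sh3-1, 58 with sh3-2 and 102 between the knockdowns. ARHGAP5 was the only small GTPase regulator tested against controls, and DENND5B joined it between the knockdowns. None of them was called at an FDR under 0.05, against a background of 0% in each of the 3 comparisons and in both circle-level ones, by edgeR or by DESeq2. At an unadjusted p under 0.05, edgeR found 6, 5 and 7 hosts and, for circles, 2 of 33 with sh3-1 and 1 of 24 with sh3-2, none of them a small GTPase regulator.

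With a lower filter of 10 reads over the libraries compared, 21 small GTPase regulator hosts entered the sh3-1 fit and 17 the sh3-2 fit, and again none was called (background 0% of 895 and 0% of 739, edgeR). A host can reach 10 reads through the group in which it is high, so directions are given without a filter. With sh3-1, 37 of 70 small GTPase regulator hosts with a read had a fitted log2 fold change above 0, against 1550 of 3354 hosts in all. With sh3-2 the counts were 28 of 65 against 1358 of 3204. For ASAP1 the adjusted edgeR p was 0.998 with sh3-1, 0.916 with sh3-2 and 0.630 between the knockdowns. At the circle level the same filter let in 7 small GTPase regulator circles with sh3-1 and 6 with sh3-2. None was called, against backgrounds of 0% of 509 and 0.258% of 387 circles. Without a filter 84 of 169 of their circles had a fitted log2 fold change above 0 with sh3-1, against 3197 of 7021 in all. With sh3-2 the counts were 64 of 157 against 2806 of 6648. The authors' deposited table lists 80 of these 169 circles as higher with sh3-1 and 63 of the 157 with sh3-2.

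Counting hosts by whether their libraries overlapped gave 3 of these 21 higher with sh3-1 (ARHGAP26, ASAP1 and TBC1D12), against 5.70% of all hosts, and 1 lower (RABGAP1L), against 6.59%. With sh3-2, 0 of 17 were higher, against 5.68%, and 2 were lower (ASAP1 and RABGAP1L), against 7.85%. Between the knockdowns, ASAP1 was the 1 of 22 lower with sh3-2, against 7.37%, and 0 were higher, against 4.92%. As shares of the small GTPase regulators these are 14.3% and 4.76% with sh3-1, 0% and 11.8% with sh3-2, and 4.55% between the knockdowns, each resting on 3 hosts or fewer. Except for ASAP1 with sh3-1, the hosts counted here reached 10 reads only through the group in which they are high. ARHGAP26 had 2 control and 12 sh3-1 reads, TBC1D12 had 2 and 13, and RABGAP1L had 12 and 0. These counts describe the hosts and support no difference of the small GTPase regulators from other hosts.

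Other genes of the small GTPase pathways, from a list of 97 GTPases, GDP dissociation inhibitors, effectors and further exchange factors, had circle reads on 47 hosts. They took 15.3, 14.8 and 17.4 junction reads per 1000 in control libraries A, B and C, 21.1, 21.0 and 19.0 with sh3-1, and 17.3, 28.3 and 26.6 with sh3-2. All sh3-1 libraries lay above the controls, and sh3-2 A lay just below control C. Only 2 were tested against each control comparison and 3 between the knockdowns, and none was called. GDI2, which holds Rab proteins in the GDP-bound form, had a log2 fold change of 0.20 (SE 0.70) with sh3-1 and 1.33 (SE 0.61; adjusted p = 0.483, edgeR) with sh3-2. RHOBTB3, an atypical GTPase-like protein, had -0.09 (SE 0.40) and -0.43 (SE 0.38).

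The m6A entries of these circles with an authors' FDR under 0.05, a cut chosen here, were mostly higher with sh3-2. The authors' deposited table gives each entry a fold, a direction and an FDR for sh3-2 against shCtr, without values per library, so no replicate error could be attached. At an FDR under 0.05, 21 of the 362 entries were higher, 5.80% against a background of 4.47%, and 3 were lower, 0.829% against 4.53%. Higher entries were thus 87.5% of those called, against 49.7% over the series. The median log2 fold of all 362 entries was 0.01 against -0.01 over the series, so the called entries and not the whole set lay to 1 side. The 21 higher entries fell on 11 of 57 hosts, 19.3% against 16.1% of all hosts, and the 3 lower ones on 3 hosts, 5.26% against 16.5%. Without DENND5B, the host with the most entries, 14 of 322 were higher, 4.35%, which is near the background of 4.47%, and 3 were lower, 0.932%. Higher entries were then still 82.4% of those called. With that host left out, after seeing the data, the share of all entries called higher was thus no longer above the background. Among families, ARHGAP hosts (12.9%) and Rab exchange factors (10.3%), which include DENND5B, exceeded it and the others lay below. Leaving out the ARHGAP hosts was not tried.

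**Figure D4:**
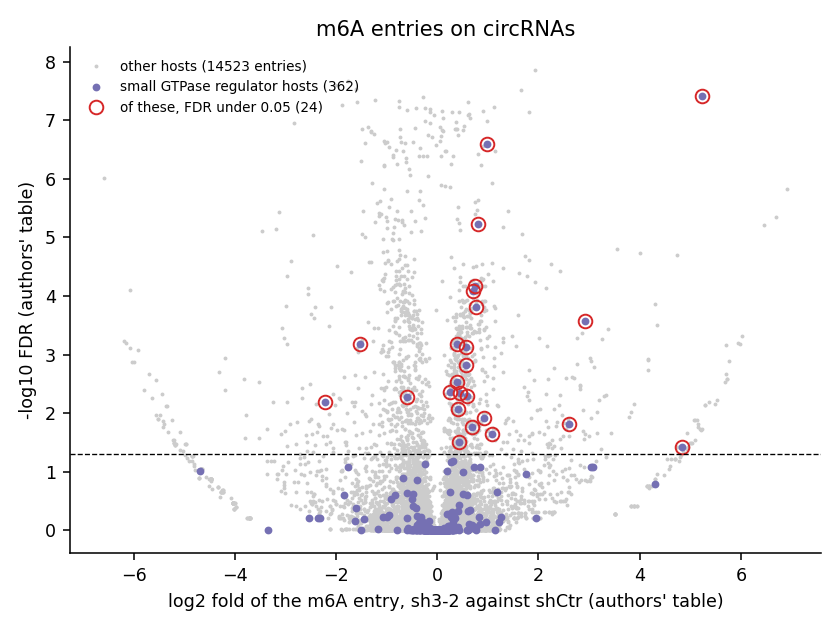
Each point is an m6A entry of the authors' deposited table, with the log2 fold of sh3-2 against shCtr on the horizontal axis and -log10 of the FDR on the vertical axis; the dashed line marks an FDR of 0.05. Of the 24 ringed entries on small GTPase regulator hosts, 21 lie to the right of 0 and 3 to the left.

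Entries overlap and several belong to the same circle, so they are not separate measurements; the 362 merge into 222 regions. The table does not say whether the fold is corrected for input, nor whether fragments of the linear host transcript were kept apart from those of the circle. By family, ARHGAP hosts had 8 entries called higher and 0 lower of 62, Rab exchange factors 9 and 1 of 87, Rab GAPs 1 and 2 of 30, and Ras, Rap and Ral regulators 2 and 0 of 51. The ARHGEF, DOCK and TIAM hosts had 1 of 78 called, and the 37 entries of RAB-named hosts and the 17 of Arf regulators had none.

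DENND5B had 40 entries, the most of any small GTPase regulator, of which 7 were called, all higher. A single circle, chr12:31545201-31600703 (hsa_circ_0098361, predicted length 1837 bases), carried 6 entries and all 6 were called higher, from 1.31-fold to 1.99-fold. In the authors' deposited table the strongest lay at chr12:31586089-31586180 (1.99-fold, FDR 2.53e-07), followed by chr12:31579227-31579320 (1.76-fold, FDR 5.85e-06). That circle had only 3 junction reads, all in sh3-2 C. The 6 positions lay within 2 to 8 of the host's circles, with 5 to 35 junction reads between them. The seventh, at chr12:31646562-31646880, was 6.11-fold higher (FDR 0.0152) on another circle.

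ARHGAP35 held the called entry with the largest fold among these hosts, 37.8-fold at chr19:47428282-47428620 (FDR 3.85e-08). Beside it, chr19:47427882-47428180 was 7.53-fold higher and the long entry chr19:47421482-47425900 was 1.36-fold higher, all on the circle chr19:47375701-47440665. That circle had 0, 0 and 5 junction reads in the controls, 0 with sh3-1 and 0, 2 and 1 with sh3-2. The 37.8-fold and 7.53-fold positions also lay within chr19:47421745-47440665 (hsa_circ_0000943), which had 19 reads in 8 libraries. ARHGAP5 joined its paralogue: all 3 of its entries, on the circle chr14:32559708-32563592 described above, had folds above 1, and those at both ends were called, each 1.32-fold higher (FDR 0.00291 and 0.00855). Among circles listed with called entries, only this one had reads in all 9 libraries. The called positions lay within 3 of the host's circles, this one included, with 206 junction reads between them. The calls therefore cannot be assigned to 1 of these circles.

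**Figure D5:**
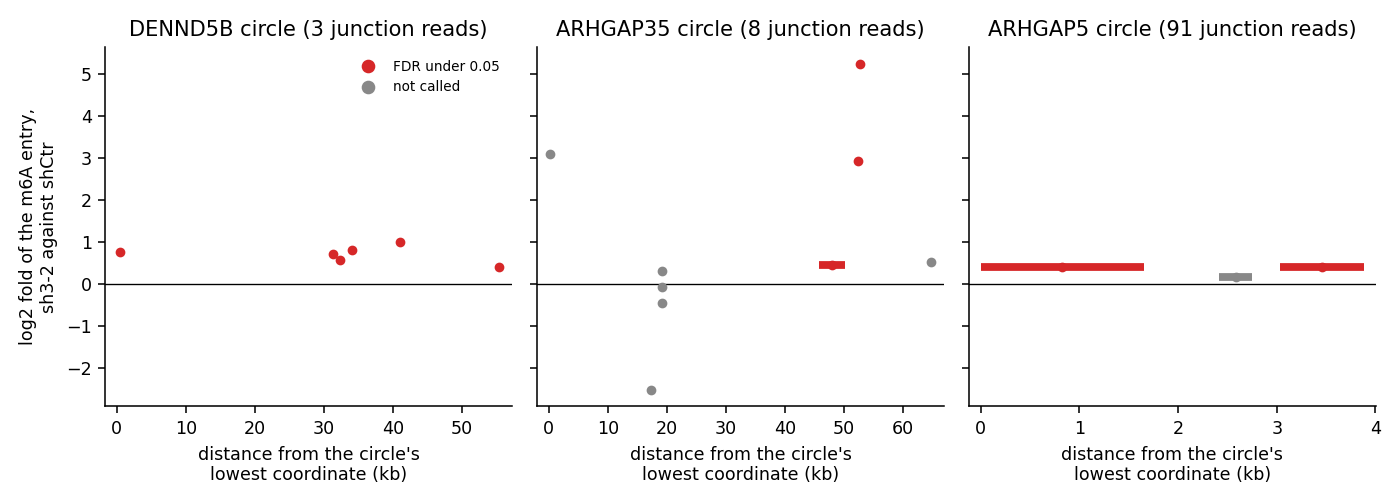
Bars and points give each m6A entry along a circle of DENND5B, ARHGAP35 and ARHGAP5, by distance in kilobases from the circle's lowest coordinate, with the log2 fold of sh3-2 against shCtr from the authors' deposited table. All 6 DENND5B entries and both ends of the ARHGAP5 circle are called higher, and the ARHGAP35 entries called lie in the right-hand part of its circle.

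DENND4A had 2 of 22 entries called, 1.69-fold and 1.48-fold higher, both listed on a circle with 4 reads in control C and none elsewhere. Each position lay within 4 of the host's circles, that one included, with 16 junction reads between them. Hosts with 1 entry called higher were ARHGAP17, ARHGAP21, ARHGAP23, DOCK5, SOS2, RALGAPA2 and TBC1D19. Their folds ran from 1.19 for ARHGAP21, whose 13 entries lay on a circle without junction reads, to 28.7 for TBC1D19, whose entry spanned 18 bases. SOS2 is a Ras exchange factor and RALGAPA2 a catalytic subunit of the Ral GAP complex. The 3 lower entries were in TBC1D10B at chr16:30372481-30372520 (2.89-fold, FDR 6.50e-04), DENND1A at chr9:126202382-126203020 (1.51-fold, FDR 0.00522) and TBC1D30 at chr12:65224157-65224180 (4.64-fold, FDR 0.00644). Each of these 3 circles had 5 or fewer junction reads in all.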

How the data were processed

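Members and gene lists were chosen with earlier results of these data known. The build hg19, STAR 2.5.1b, cutadapt 1.9.3 and edgeR 3.16.5 are named in the submitters' processing notes without a role. Circle caller: not given in the sources used here. Peak caller: not stated, but the identifiers of the called m6A entries of these hosts begin with diffreps_peak. Per the labels' protocols, total RNA was depleted of ribosomal RNA and sequenced as paired reads of 150 bp on a strand-specific kit. The deposited circRNA sheets hold raw counts of junction reads per library, and a circRNA absent from a comparison's sheets was given 0. The same deposited sheets give a log2 fold change, p-value and FDR per circRNA; the 24 log2 CPM columns were not used. The deposited m6A sheets give per site a fold as an unsigned ratio with a separate direction, a p-value, an FDR, a length and the authors' score, the −log10 of the p-value.

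Counts were summed per host. The 15 intergenic circRNAs without a host, 0% to 0.279% of a library's reads, were left out of the host sums. Libraries were scaled to all junction reads for shares. Tests used edgeR 4.0.16 in R 4.3.3 (quasi-likelihood test with TMM factors and the filter of filterByExpr, Benjamini-Hochberg adjustment over all features tested), with each knockdown and its controls in a fit of 6 libraries and sh3-2 against sh3-1 in a fit of all 9. Each result was refitted with DESeq2 1.42.0, library totals, other filters, a replicate block and each library left out. The scripts were tested on simulated data. A floor is 3 counts. Named hosts are those with the most control reads (ties included), those tested, those past the authors' threshold and those with the most circles or called m6A entries; ARHGAP26, TBC1D12, TBC1D31, DENND4C, RAPGEF2 and the other hosts with 1 called m6A entry were named after their values were seen. The values of 1 host, and with them the circles called higher with sh3-1 by the authors' threshold, are not reported here.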

Additional observations from a re-analysis of the deposited data

Results flagged for a closer look

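ASAP1 is given here because its knockdown libraries lay on opposite sides of the controls, an order found in 6 of 1137 hosts with 10 or more reads, 0.528%. It was singled out after its values were seen. Its circles took more junction reads per 1000 than any control in all 3 sh3-1 libraries and fewer in all 3 sh3-2 libraries. All its reads in sh3-1 A were on circles also found in sh3-1 B. Between the knockdowns, with the filter of 10 reads, the log2 fold change of sh3-2 against sh3-1 was -1.94 (SE 1.14; unadjusted p = 0.0885, adjusted p = 0.630, edgeR's quasi-likelihood test). The difference between knockdowns did not pass that test. The counts behind it are 22 reads with sh3-1, 4 with sh3-2 and 15 in the controls.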

How the results depend on the processing

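The count of small GTPase regulator hosts or circles called was 0 under DESeq2, library totals, both other filters, a replicate block and each library left out among those compared (range 0 to 0). It was also 0 with exonic circles, run for hosts alone, and with all 9 libraries in 1 fit, run against the controls alone. Of the 67 fits, 4 tested no small GTPase regulator and 43 tested 1 or 2, so a count of 0 shows nothing about stability. With the replicate block no small GTPase regulator was called (0), and the ARHGAP5 log2 fold change was 0.67 with sh3-1. Over all hosts, sh3-2 against shCtr gave 1 call with the block, 1 with library totals, 1 without sh3-2 A, 1 without sh3-2 C and 3 without shCtr B. Same-letter libraries did not deviate together (correlations from -0.27 to 0.24 over the hosts tested), so the letters are not shown to pair samples. The ARHGAP5 log2 fold change ran from 0.52 to 0.91 with sh3-1 and from 0.30 to 0.66 with sh3-2. For DENND5B, sh3-2 against sh3-1, the sign turned without sh3-1 A (-0.15), sh3-2 B (-0.09) and sh3-2 C (-0.10), within a range of -0.15 to 0.40 over libraries left out; the cause was not tested. The 24 called m6A entries became 7 (5 higher, 2 lower) with a fold of at least 2 added and 12 (11 and 1) on exonic circles. They became 18 (15 and 3) at an FDR under 0.01 and stayed 24 with each position counted once. The fold and FDR rules are stricter, and exonic circles hold fewer entries. In the order given, these counts are 1.93%, 7.14%, 4.97% and 6.74% of the entries, against 2.64%, 9.50%, 6.01% and 9.16% over the series. The last alternatives were chosen after seeing the data: without DENND5B 17 entries were called, and without ARHGAP5 the excess of sh3-1 over shCtr fell from 4.91 to 2.77 reads per 1000, against 3.69 to 5.67 with each library left out. For sh3-2 minus shCtr the difference was 0.231 and ran from -0.997 to 0.986 with each library left out. Depth limits these results: most circles had under 10 reads in all.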
